A study of Mus musculus with 9 samples.

Results

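The 9 genes described here (Ltf, Camp, Ngp, Lcn2, Mmp8, Mmp9, Cd177, Chil3 and Cd24a) are linked to the specific and gelatinase granules of neutrophils. They were taken by symbol from the deposited expression table, and 9 of 9 were found among its 18571 genes. RNA was measured in CD45-immunopanned cells, labelled microglia, from cortex and hippocampus of 9-month-old C57BL6/j mice, perfused and with the meninges removed. The wild type group (WT) had 3 libraries, as had the APP/PS1 group, whose mice carry human APP and presenilin transgenes and develop amyloid deposits. The third group of 3 libraries, APP/PS1:Cx3cr1-CreER:Cx43-flox/flox (cKO from here on), also carried floxed Cx43 and a tamoxifen-activated recombinase expressed from Cx3cr1, a gene used by microglia and some other myeloid cells. Per the labels, tamoxifen was given by gavage at 8 months at 0.1 mg/g for 5 days, with the same text for the 3 groups. The study asked what microglial Cx43 (encoded by Gja1) does in this amyloid model. There was no group with the recombinase and without floxed Cx43, and none with Cx43 deleted on a WT background among the samples analysed here. CD45 is carried by all leukocytes, so the capture does not separate microglia from neutrophils.

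Neutrophils make their granules in order while they mature in the bone marrow. Azurophil granules are filled first, in promyelocytes, then specific granules in myelocytes and metamyelocytes, and gelatinase granules in band cells, and much of the granule RNA is lost as the cells become mature. Granule contents include iron and siderophore binders, antimicrobial peptides and proteases, and few neutrophils are found in healthy brain tissue. Not all of the 9 genes are granule contents only. Cd24a encodes a surface glycoprotein that is also made by B cell precursors, erythroid precursors and young neurons. Chil3 is also made by alternatively activated macrophages.

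Camp, Ngp and Ltf lie within 1195 kb of one another on chromosome 9 (GRCm38.p6), Camp at chr9:109847377-109849456 on the minus strand, Ngp at chr9:110419808-110423012 and Ltf at chr9:111019292-111042766, both on the plus strand. Mmp8 is farther away on the same chromosome, at chr9:7558429-7568486. The other protein-coding genes of the set are Lcn2 at chr2:32384637-32387739, Mmp9 at chr2:164940326-164955850, Cd177 at chr7:24743983-24760334, Chil3 at chr3:106147554-106167564 and Cd24a at chr10:43579169-43584265. RefSeq promoter sequences (GRCm38.p6) were matched for 7 of the 9 genes. They are shown because these genes moved together between the groups, and specific granule genes are known targets of the transcription factors C/EBP-epsilon and PU.1. Windows from 250 bases before to 50 bases after the annotated start were searched on both strands for TTNNGNAA, a C/EBP core, and GAGGAA, a PU.1 core. The first was in 6 of the 7 promoters against 40.7% of 32851 promoters of the same length, and the second in 4 of the 7 against 28.3%. The same 4 promoters held both (11.8% of all promoters), namely those of Ltf, Lcn2, Mmp8 and Cd177. In these promoters no match of one motif overlapped a match of the other. The 250 bases before the start are given, 5′ to 3′ on the gene's strand, for Ngp, the gene with the highest level, for Ltf and Cd177, which changed most, and for Camp, which moved differently from Ngp. For Cd177 the start used for the promoter lies inside the gene span given above, so its printed bases and that span overlap. Capitals mark the matches, and a match on the opposite strand appears as TTNCNNAA or TTCCTC.
Ngp, chr9:110419558-110419807: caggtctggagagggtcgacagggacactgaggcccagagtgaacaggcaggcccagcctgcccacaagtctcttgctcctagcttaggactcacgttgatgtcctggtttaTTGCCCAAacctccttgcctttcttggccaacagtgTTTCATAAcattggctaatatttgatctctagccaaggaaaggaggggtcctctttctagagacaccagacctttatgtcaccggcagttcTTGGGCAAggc
Ltf, chr9:111019042-111019291: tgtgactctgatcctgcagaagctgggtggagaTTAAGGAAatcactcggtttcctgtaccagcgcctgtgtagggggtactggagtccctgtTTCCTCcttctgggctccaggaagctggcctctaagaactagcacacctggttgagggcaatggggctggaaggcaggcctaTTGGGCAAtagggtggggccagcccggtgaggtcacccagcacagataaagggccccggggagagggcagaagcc
Cd177, chr7:24760312-24760561: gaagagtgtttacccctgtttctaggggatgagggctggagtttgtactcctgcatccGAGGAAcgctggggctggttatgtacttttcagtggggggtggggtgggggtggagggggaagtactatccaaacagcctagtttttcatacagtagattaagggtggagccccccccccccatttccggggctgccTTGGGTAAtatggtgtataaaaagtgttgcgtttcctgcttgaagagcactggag
Camp, chr9:109849457-109849706: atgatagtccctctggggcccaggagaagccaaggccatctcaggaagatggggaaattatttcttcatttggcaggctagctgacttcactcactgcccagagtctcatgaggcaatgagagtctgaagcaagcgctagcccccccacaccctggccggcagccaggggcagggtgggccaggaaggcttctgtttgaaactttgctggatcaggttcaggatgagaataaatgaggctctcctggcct
The Ngp promoter held 3 C/EBP cores and no GAGGAA, Ltf held 2 C/EBP cores and 1 GAGGAA, and Cd177 held 1 of each. The Camp promoter held neither. A match of letters is a description of the sequence and does not show a bound site.

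Total estimated counts were 18907681 to 19565354 per library, and the 9 genes together took 0.187% to 0.189% of them in WT, 0.0347% to 0.0353% in APP/PS1 and 0.572% to 0.575% in cKO. Microglial markers were high in every library (summed level of 6 genes from 16619 to 19256 CPM, that is counts scaled to a common library size with factors from the trimmed mean of M-values, TMM). Among these markers Cx3cr1 itself, whose locus drives the recombinase, was at 2260 CPM ± 24.2, 2231 CPM ± 13.6 and 1214 CPM ± 25.0 in WT, APP/PS1 and cKO (SD, n = 3). Gja1, the targeted gene, had means of 33.6 ± 1.77, 39.7 ± 2.71 and 26.9 ± 1.41 CPM in WT, APP/PS1 and cKO (SD, n = 3). Its log2 changes in cKO were -0.56 from APP/PS1 and -0.32 from WT (edgeR adjusted p 7.95e-09 and 7.62e-05). Astrocytes also express Gja1, and 4 of 5 astrocyte markers fell from APP/PS1 to cKO as well, by -0.92 (Gjb6), -0.60 (Aldh1l1), -0.47 (Aqp4) and -0.45 (Slc1a2) on the log2 scale (edgeR adjusted p 2.99e-09, 1.10e-05, 2.15e-05 and 1.70e-12). From WT to cKO 3 of these 5 markers were higher (Gfap 2.66, Aqp4 0.66 and Slc1a2 0.21) and Gjb6 was lower (-0.54). Their part in the Gja1 values was not tested. The Y-linked gene Ddx3y had 0, 1 and 2 counts in the cKO libraries and 4137 to 4538 in the others, so sex-linked expression and Cx43 genotype cannot be told apart here. The labels do not say that the 3 libraries of a group came from separate mice, so the p-values below measure only the spread between these libraries, which may be technical. Across 27 pairs of a gene and a group, the chi-square per degree of freedom between the 3 libraries had a median of 1.35. It was under 1 in 10 pairs, and its highest value was 43.4, for Lcn2 in cKO. Counting error alone gives a mean of about 1 and a median below 1, so the typical spread was above counting error.

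Granule genes were highest in cKO, intermediate in WT and lowest in APP/PS1. For 9 of the 9 genes no pair of the 3 groups overlapped. Among all tested genes, 63.5% did not overlap between APP/PS1 and WT, 59.6% between cKO and APP/PS1 and 54.6% between cKO and WT. The share without overlap in all 3 pairs at once was not counted. The summed level of the 9 genes was 1780.1, 1765 and 1775 CPM in the WT libraries, 366, 365 and 362 CPM in APP/PS1, and 5845, 5835 and 5842 CPM in cKO. APP/PS1 was thus 4.87-fold below WT, while cKO was 16.04-fold above APP/PS1 and 3.29-fold above WT (two-sided exact permutation p 0.1 for each pair, the smallest that 3 against 3 can give). In bulk RNA, more cells of a type and more RNA per cell cannot be told apart.

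**Figure D1:**
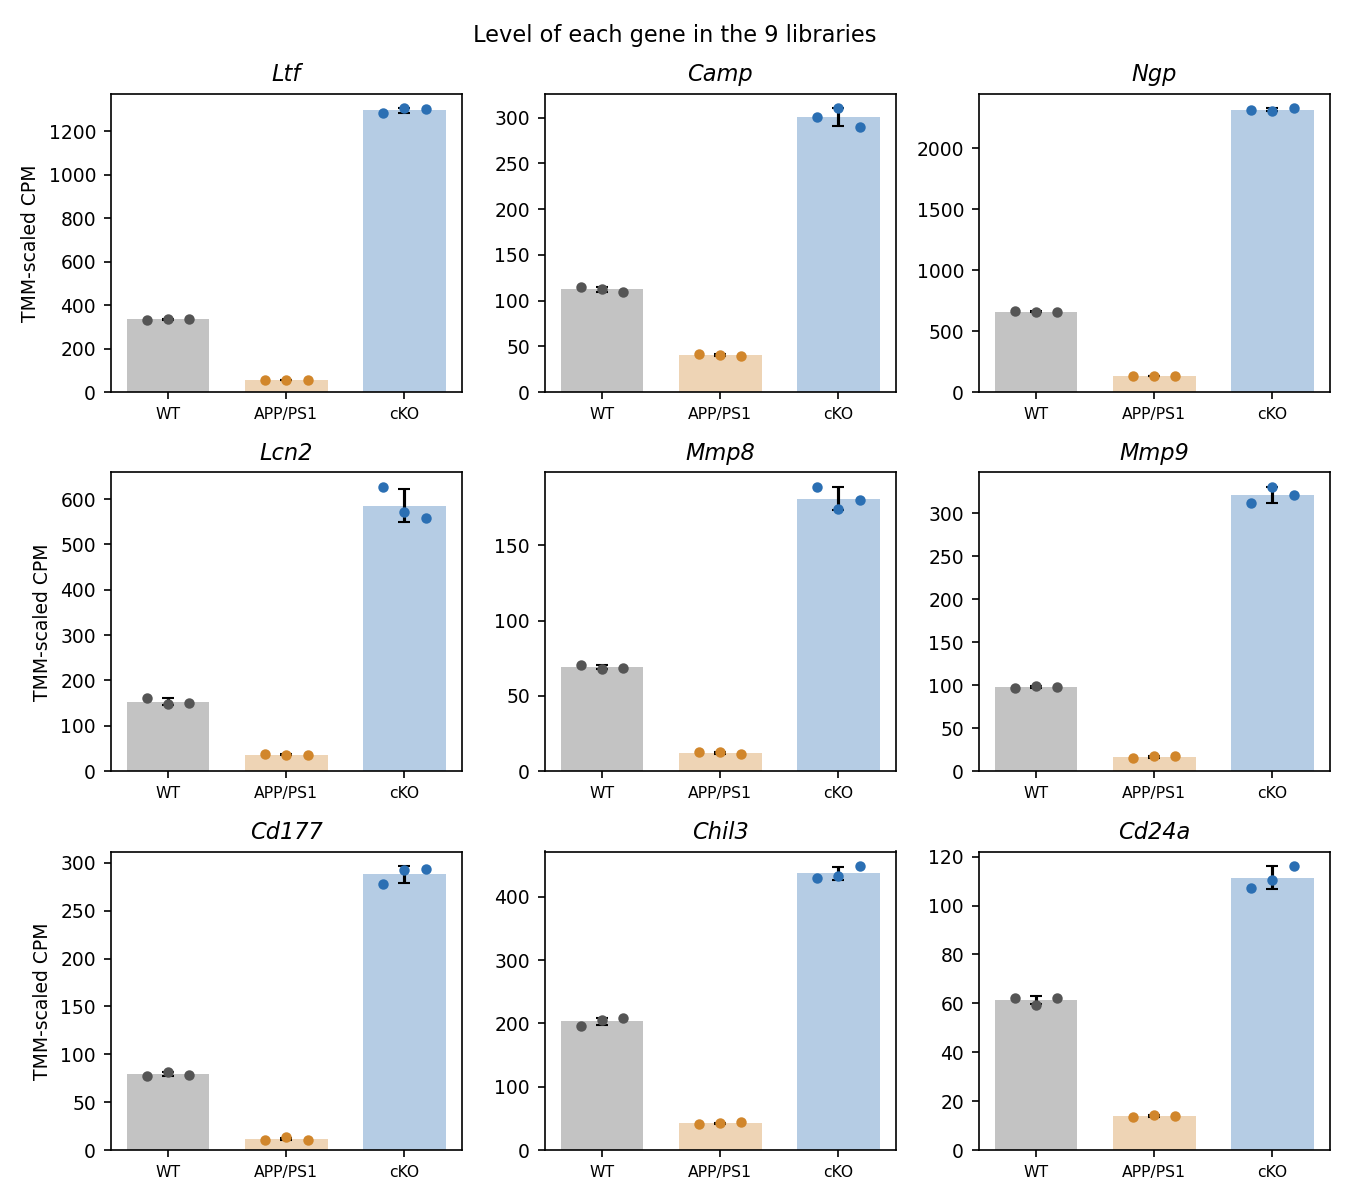
TMM-scaled CPM (vertical axis, linear from 0, a different scale for each gene) of the 9 genes in WT, APP/PS1 and cKO. Points are libraries, bars are means and error bars are SD (n = 3). In 9 of 9 panels the APP/PS1 points lie lowest and the cKO points highest without overlap. By pair of groups, 54.6% to 63.5% of all tested genes did not overlap.

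Ngp encodes neutrophilic granule protein, a cathelicidin relative of specific granules. Its level was 669, 655 and 661 CPM in the WT libraries, 134.6, 134.9 and 134.3 CPM in APP/PS1, and 2317, 2305 and 2333 CPM in cKO. The APP/PS1 libraries were low and the cKO libraries high, with wide gaps between groups and almost no spread within them. Ngp fell 4.91-fold in APP/PS1 against WT (log2 change -2.30, SE 0.03, edgeR quasi-likelihood adjusted p 5.26e-29) and rose 17.2-fold in cKO against APP/PS1 (log2 change 4.11, SE 0.03, edgeR adjusted p 4.76e-34). Against WT, cKO was 3.51-fold higher (log2 change 1.81, SE 0.03, edgeR adjusted p 2.86e-27).

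Ltf encodes lactoferrin, the iron-binding protein that defines specific granules. It was at 332, 336 and 339 CPM in WT, 57.2, 54.6 and 55.1 CPM in APP/PS1, and 1285, 1307 and 1301 CPM in cKO. Its differences were larger than those of Ngp in each comparison and far outside the spread of the libraries. Ltf fell 6.03-fold in APP/PS1 (log2 change -2.59, SE 0.03, edgeR adjusted p 9.97e-29), rose 23.3-fold from APP/PS1 to cKO (4.54, SE 0.03, edgeR adjusted p 4.76e-34), and was 3.87-fold above WT in cKO (1.95, SE 0.03, edgeR adjusted p 2.86e-27).

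Camp encodes cathelicidin, the precursor of the antimicrobial peptide CRAMP. Its libraries were at 115, 113 and 109 CPM in WT, 41.6, 40.6 and 39.4 CPM in APP/PS1, and 301, 311 and 290.4 CPM in cKO. The order of the groups was that of Ngp, with smaller gaps. Camp fell 2.77-fold in APP/PS1 (log2 change -1.47, SE 0.04, edgeR adjusted p 4.21e-21), rose 7.43-fold in cKO against APP/PS1 (2.89, SE 0.04, edgeR adjusted p 4.53e-28) and was 2.68-fold above WT in cKO (1.42, SE 0.03, edgeR adjusted p 2.61e-22).

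Lcn2 encodes lipocalin 2, which binds bacterial siderophores and is also induced in reactive astrocytes. It was at 161, 149 and 150.5 CPM in WT, 37.9, 35.1 and 35.5 CPM in APP/PS1, and 627, 572 and 558 CPM in cKO. The 3 groups stood apart, although the cKO libraries spread more for Lcn2 (coefficient of variation 6.25%) than for Ngp (0.616%). Lcn2 fell 4.25-fold in APP/PS1 (log2 change -2.09, SE 0.05, edgeR adjusted p 9.76e-18) and rose 16.2-fold in cKO against APP/PS1 (4.02, SE 0.05, edgeR adjusted p 1.27e-22). In cKO it was 3.82-fold above WT (1.93, SE 0.04, edgeR adjusted p 1.95e-18). The astrocyte marker Gfap was at 6.86 CPM ± 0.400 in WT, with 41.1 CPM ± 2.37 in APP/PS1 and 43.3 CPM ± 0.607 in cKO (SD, n = 3). The 5 astrocyte markers summed to 202 to 208 CPM, 349 to 358 CPM and 266 to 270 CPM in these groups, and the part of astrocytes in the Lcn2 values was not tested.

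Mmp8, the neutrophil collagenase, and Mmp9, the gelatinase that gives gelatinase granules their name, are secreted metalloproteinases. Mmp8 was at 70.5, 67.8 and 68.7 CPM in WT, 12.6, 12.4 and 11.3 CPM in APP/PS1, and 189, 174 and 180 CPM in cKO. Mmp9 was at 96.8, 99.5 and 97.7 CPM in WT, 15.6, 17.3 and 17.7 CPM in APP/PS1, and 311, 330.5 and 321 CPM in cKO. For both proteases the APP/PS1 libraries were lowest and the cKO libraries highest, without overlap. From WT to APP/PS1 they fell 5.71-fold and 5.82-fold (log2 changes -2.51, SE 0.06, and -2.54, SE 0.05; edgeR adjusted p 4.33e-23 and 1.58e-24). From APP/PS1 to cKO the rises were 15.0-fold and 19.0-fold (3.90, SE 0.05, and 4.25, SE 0.05; edgeR adjusted p 3.48e-28 and 3.16e-30). Compared with WT, Mmp8 was 2.62-fold and Mmp9 3.27-fold higher in cKO (1.39, SE 0.04, and 1.71, SE 0.04; edgeR adjusted p 9.34e-21 and 9.15e-24). Of their tissue inhibitors, Timp2 was 0.75 above WT on the log2 scale in APP/PS1 and 0.78 above WT in cKO (edgeR adjusted p 2.23e-17 and 1.52e-17), and Timp1, whose WT libraries held 8, 5 and 35 counts, those of APP/PS1 6, 4 and 4, and those of cKO 16, 9 and 14, had edgeR adjusted p of 0.0818, 0.145 and 0.804 in APP/PS1 against WT, cKO against APP/PS1 and cKO against WT.

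Cd177 encodes a membrane protein of specific granules and the neutrophil surface that binds PECAM1. Its level was 77.3, 81.3 and 78.5 CPM in WT, 10.8, 13.4 and 10.99 CPM in APP/PS1, and 277, 293 and 293 CPM in cKO. These were the largest fitted changes among the 9 genes between APP/PS1 and either other group. Cd177 fell 6.73-fold in APP/PS1 (log2 change -2.75, SE 0.06, edgeR adjusted p 1.68e-23), rose 24.5-fold in cKO against APP/PS1 (4.62, SE 0.05, edgeR adjusted p 1.71e-29) and was 3.64-fold above WT in cKO (1.86, SE 0.04, edgeR adjusted p 2.32e-23). Pecam1 itself, an adhesion molecule of vessels and leukocytes, was lower than WT in APP/PS1 (log2 change -0.16, edgeR adjusted p 0.00143) and in cKO (-0.21, edgeR adjusted p 0.000140), with a change of -0.05 from APP/PS1 to cKO (edgeR adjusted p 0.366).

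Chil3 encodes the chitinase-like protein Ym1 of neutrophils and alternatively activated macrophages. Its libraries held 197, 205 and 208 CPM in WT, 41.6, 42.2 and 43.8 CPM in APP/PS1, and 429, 433 and 449 CPM in cKO. It followed the same order of groups, with the cKO libraries closer to WT than for Ngp. Chil3 fell 4.78-fold in APP/PS1 (log2 change -2.26, SE 0.04, edgeR adjusted p 9.34e-26), rose 10.3-fold in cKO against APP/PS1 (3.36, SE 0.04, edgeR adjusted p 7.40e-30), and was 2.15-fold above WT in cKO (1.11, SE 0.03, edgeR adjusted p 1.05e-20). Its close relative Chil4 had at most 4 counts in any library. How reads shared by the 2 genes were counted is not given in the sources used here. Of 5 other genes of alternatively activated macrophages, none rose in cKO in either comparison, and Mrc1, the mannose receptor, fell against both APP/PS1 and WT (log2 changes -0.25 and -0.64; edgeR adjusted p 4.81e-06 and 1.18e-13). The summed level of these 5 genes was 229 to 246 CPM in WT, 176 to 184 CPM in APP/PS1 and 142 to 157 CPM in cKO, and the part of such macrophages in the Chil3 values was not tested.

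Cd24a was at 62.1, 59.5 and 62.4 CPM in WT, 13.7, 14.3 and 14.1 CPM in APP/PS1, and 107, 111 and 116 CPM in cKO. It had the smallest difference between cKO and WT among the 9 genes. Cd24a fell 4.36-fold in APP/PS1 (log2 change -2.13, SE 0.06, edgeR adjusted p 1.07e-21), rose 7.92-fold in cKO against APP/PS1 (2.99, SE 0.05, edgeR adjusted p 1.48e-25), and was 1.81-fold above WT in cKO (0.86, SE 0.04, edgeR adjusted p 9.07e-16). Siglecg, a receptor for Cd24a that is known from B cells, was instead highest in WT (9.12 CPM ± 0.596, against 3.44 CPM ± 0.560 in APP/PS1 and 5.48 CPM ± 0.503 in cKO, SD, n = 3).

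**Figure D2:**
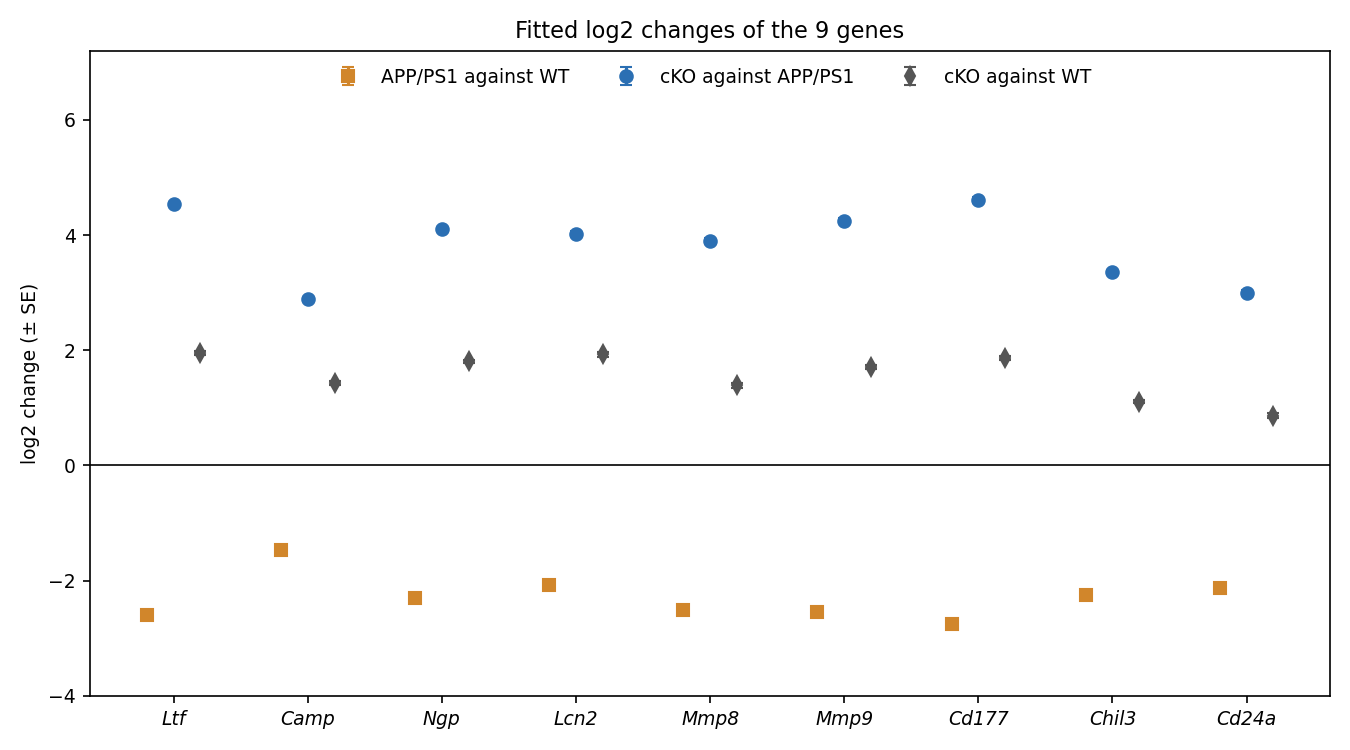
Fitted log2 changes (vertical axis, error bars SE) of the 9 genes in the 3 comparisons, from a single edgeR fit of 9 libraries. cKO against APP/PS1 runs from 2.89 for Camp to 4.62 for Cd177, and APP/PS1 against WT from -2.75 for Cd177 to -1.47 for Camp.

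From WT to APP/PS1, 9 of the 9 genes were called lower, where 59% of 14696 tested genes were called, 26.9% higher and 32% lower, and the median log2 change was -2.30 for the 9 genes and -0.04 for all tested genes. In cKO against APP/PS1, 9 of 9 were called higher, where 55% of tested genes were called, 27.3% higher and 27.7% lower (medians 4.02 and -0.01). In cKO against WT, 9 of 9 were called higher, where 47.7% of tested genes were called, 24.7% higher and 23% lower (medians 1.71 and -0.01). The comparisons share libraries, so a low level in APP/PS1 enters the first and the second alike. The groups did not overlap in CPM for 63.5%, 59.6% and 54.6% of all tested genes, so a lack of overlap alone is common in this table. Changes of the size seen here were rarer. A share of 1.2% of tested genes were at least 4-fold lower in APP/PS1 than in WT, as were 8 of the 9 genes (all but Camp). At least 4-fold higher in cKO than in APP/PS1 were 1.86% of tested genes and 9 of the 9. Between cKO and WT, 0.674% reached 4-fold higher and none of the 9 did. Scaling by library totals in the same edgeR test moved the median of all genes to -0.17, 0.02 and -0.12 in the 3 comparisons. With it the share of higher genes among all calls went from 45.7% to 29.5% in the first, from 49.6% to 54.8% in the second and from 51.9% to 30.4% in the third. With TPM, where the test was limma-trend as well (pseudocount 1), these shares were 14.7%, 75.3% and 19.8% and the medians -0.35, 0.14 and -0.17. The 9 genes kept their direction in both.

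Levels per transcript length, from the deposited TPM values (transcript abundances corrected for length), put Ngp first in each group (1401 TPM ± 17.3 in WT, 217 TPM ± 0.418 in APP/PS1 and 4282 TPM ± 34.5 in cKO, SD, n = 3). In WT, Camp at 481 TPM ± 11.4 and Lcn2 at 450 TPM ± 20.5 came next and overlapped, followed by Chil3 at 321 TPM ± 8.93 and Ltf at 294 TPM ± 2.68. In cKO the order changed. Lcn2, at 1496 TPM ± 96.3, stood above Camp at 1123 TPM ± 36.1, and Ltf, at 990 TPM ± 6.19, above Chil3 at 602 TPM ± 14.5, each without overlap. Mmp9, Cd177, Mmp8 and Cd24a formed the lower end, at 67.6 to 81.8 TPM in WT, 8.10 to 14.3 TPM in APP/PS1 and 129 to 221 TPM in cKO on average. Cd24a was the highest of those 4 in WT and in APP/PS1 and the lowest of them in cKO. Cd177 and Mmp8 overlapped in WT, as did Mmp9, Mmp8 and Cd177 as neighbours in APP/PS1 and Cd177 and Mmp9 in cKO.

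The genes did not move in a fixed proportion. Each was set against Ngp in the same library, as counts per 1000 Ngp counts, a ratio that library scaling cannot change. Camp was at 170 ± 3.47 in WT, 301 ± 7.71 in APP/PS1 and 130 ± 5.18 in cKO (SD, n = 3), so it made up the most beside Ngp in the group where both were lowest. Ltf ran the other way, at 508 ± 9.48, 413 ± 10.7 and 560 ± 6.38. Cd177 was lowest beside Ngp in APP/PS1 as well, with 120 ± 4.35, 87.2 ± 10.5 and 124 ± 3.91, and its WT and cKO libraries overlapped. Chil3 and Cd24a showed another pattern, with cKO well below both other groups. The WT and APP/PS1 libraries overlapped for Chil3, while for Cd24a those of APP/PS1 lay above WT. Chil3 was at 307 ± 11.5, 316 ± 8.84 and 188 ± 3.58 per 1000 Ngp, and Cd24a at 92.7 ± 1.77, 104 ± 2.32 and 48.0 ± 1.82. Lcn2 kept nearest to Ngp between APP/PS1 and cKO (268 ± 11.5 and 253 ± 16.3), which overlapped. Mmp8 was at 104 ± 0.941, 89.8 ± 5.22 and 78.0 ± 3.15, and Mmp9 at 148 ± 3.59, 125 ± 8.35 and 138 ± 4.62. Over the 24 comparisons of 8 genes, 20 had the smallest exact permutation p possible, 0.1 (two-sided; Benjamini-Hochberg adjusted p 0.12), so none could pass 0.05 in this design. The 4 others, with exact permutation p from 0.2 to 0.6, were those whose libraries overlapped.

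**Figure D3:**
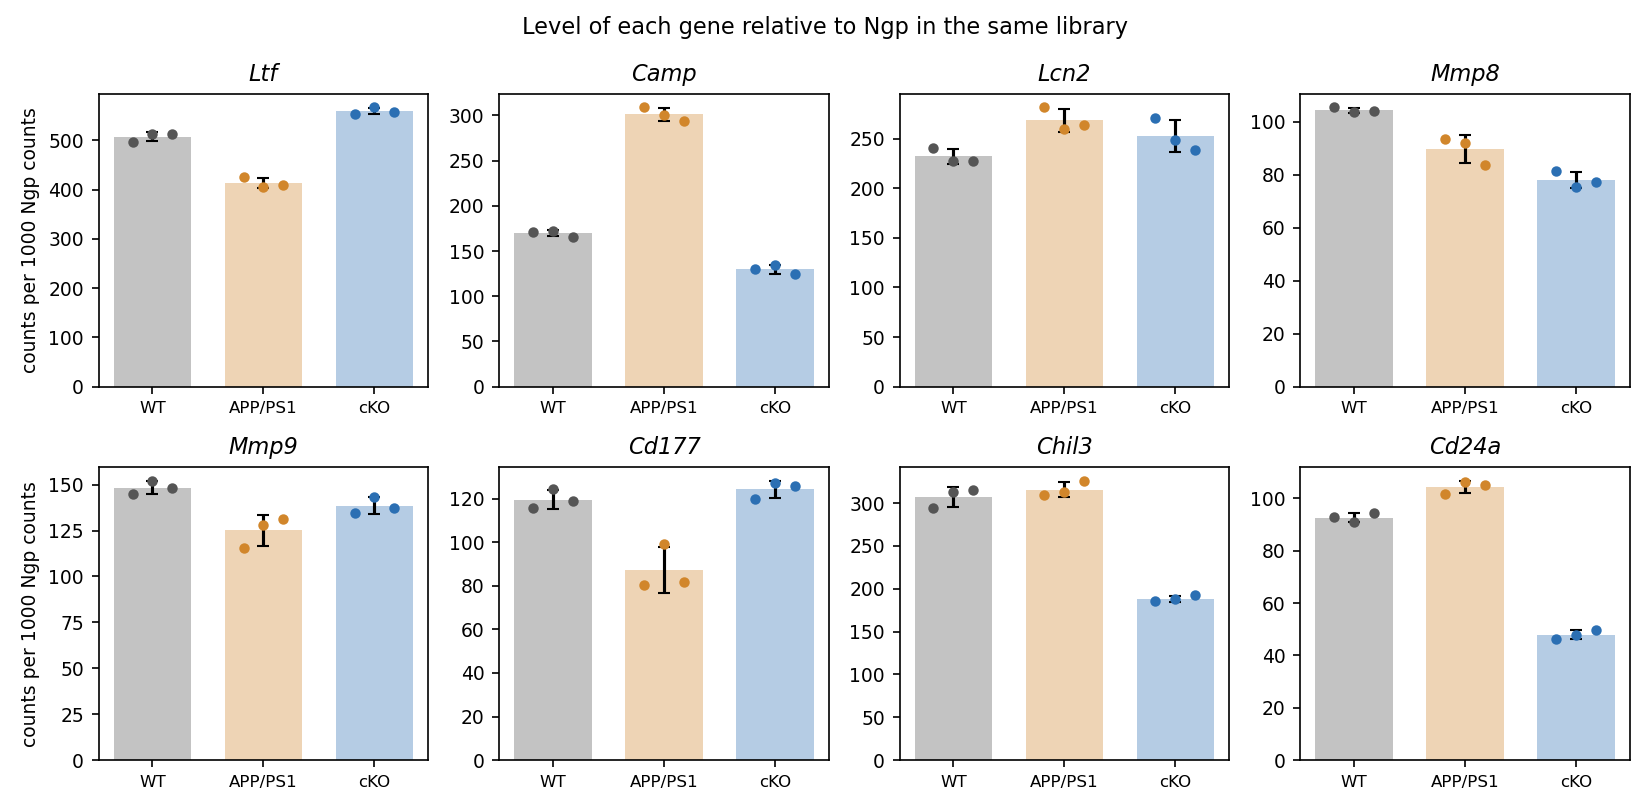
Counts per 1000 Ngp counts in the same library (vertical axis, from 0, a different scale for each gene) for 8 genes. Points are libraries, bars are means and error bars are SD (n = 3). Camp is highest in APP/PS1 at 301 ± 7.71, while Chil3 and Cd24a are low in cKO at 188 ± 3.58 and 48.0 ± 1.82.

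The 6 further content genes listed here went the same way, while granule membrane genes did so only in part. The 6 other content genes (Fcnb, Olfm4, Hp, Pglyrp1, Mmp25 and Slpi) were called lower in APP/PS1 (6 of 6 against WT, median -1.68) and higher in cKO, against APP/PS1 and against WT (6 of 6 each, medians 3.52 and 1.45). Fcnb, the ficolin B gene, had the largest fall from WT to APP/PS1 and the largest rise from APP/PS1 to cKO among them (-3.53 and 4.38; edgeR adjusted p 6.52e-18 and 5.59e-21), and Olfm4, which marks a subset of neutrophils, the smallest of both (-0.48 and 2.22; edgeR adjusted p 1.28e-06 and 9.63e-22). Between cKO and WT the range was from 0.86 for Fcnb to 2.08 for Slpi, a protease inhibitor, with Olfm4 at 1.73. Of 5 granule membrane genes that microglia also use, 4 rose and Cyba fell in cKO against APP/PS1 (median 0.57). In APP/PS1 against WT 3 fell and Cyba rose, and in cKO against WT 5 of 5 rose. Among them Fpr1, a formyl peptide receptor, had the largest rise against APP/PS1 (3.58, edgeR adjusted p 1.63e-21). Fpr2, a formyl peptide receptor at which cathelicidin peptides act, rose by 2.99 against APP/PS1 (edgeR adjusted p 1.52e-22). Of the 7 binding partners and inhibitors of the proteins, 2 were higher and 2 lower in that comparison, 2 higher and 3 lower in APP/PS1 against WT, and 2 higher and 3 lower in cKO against WT. Lrp1, an endocytic receptor that takes up lactoferrin, differed by 0.07 in APP/PS1 against WT and by -0.10 in cKO against APP/PS1 (edgeR adjusted p 0.0363 and 0.00566), and Slc22a17, a lipocalin 2 receptor, by -0.12 in the latter (edgeR adjusted p 0.0384).

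Azurophil granule genes, made at an earlier stage, had another order of groups. The 6 genes (Mpo, Elane, Prtn3, Ctsg, Ms4a3 and Prss57) summed to 518 to 544 CPM in WT, with 8.56 to 10.1 CPM in APP/PS1 and 329 to 340 CPM in cKO, so WT and not cKO was highest. From WT to APP/PS1, 6 of 6 fell (median -5.56), from -6.20 for Elane to -4.85 for Prss57, which like Prtn3 encode serine proteases. Against APP/PS1, 6 of 6 rose in cKO (median 4.93), and against WT 6 of 6 were lower in cKO (median -0.61), from -0.85 for Ctsg, the cathepsin G gene, to -0.33 for Ms4a3. Mpo, which encodes myeloperoxidase, was at 303 CPM ± 11.5 in WT, with 5.13 CPM ± 0.967 in APP/PS1 and 187 CPM ± 5.52 in cKO (SD, n = 3). Per CPM of the azurophil list, the 9 granule genes had 3.34 ± 0.0909 in WT, 38.5 ± 3.67 in APP/PS1 and 17.4 ± 0.314 in cKO (SD, n = 3; two-sided exact permutation p 0.1 for each pair, the smallest possible). This ratio was chosen after the values of both lists had been seen.

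Between APP/PS1 and the other groups, the calprotectin and mature neutrophil lists had smaller median changes than the 9 genes. The calprotectin genes S100a8 and S100a9, for a cytosolic calcium-binding complex, fell by 0.76 and 1.25 in APP/PS1 against WT and rose by 2.57 and 2.79 in cKO against APP/PS1 on the log2 scale (edgeR adjusted p 5.44e-18, 9.04e-20, 1.71e-29 and 1.67e-26). The 6 mature neutrophil genes were 6 of 6 lower in APP/PS1 against WT (median -1.42), 6 of 6 higher in cKO against APP/PS1 (median 2.71), and 5 of 6 higher in cKO against WT (median 1.19), Csf3r being the exception at 0.03 (edgeR adjusted p 0.761). Trem1, a receptor that amplifies inflammatory signals, had the largest changes between APP/PS1 and the others (-1.97 and 3.10). Ly6g, the surface marker used to identify mouse neutrophils, was at 8.11 CPM ± 0.637, 3.34 CPM ± 0.102 and 23.5 CPM ± 0.566 in WT, APP/PS1 and cKO (SD, n = 3). The ratio of Ltf, Camp and Ngp to Cxcr2, Csf3r and Retnlg was 1.35 ± 0.0749 in WT, 0.389 ± 0.0272 in APP/PS1 and 3.75 ± 0.0882 in cKO (SD, n = 3; two-sided exact permutation p 0.1 for each pair, the smallest possible). Csf3r, at 541 to 701 CPM on average, carried most of the denominator and is also expressed by microglia. With Cxcr2 and Retnlg alone the ratios were 8.03 ± 0.172, 4.30 ± 0.147 and 11.4 ± 0.422, in the same order, with log2 differences of -0.90 (APP/PS1 against WT), 1.41 (cKO against APP/PS1) and 0.50 (cKO against WT). Against calprotectin, the 9 genes gave 1.42 ± 0.00910, 0.595 ± 0.0138 and 1.48 ± 0.0251, so WT and cKO lay close together on that scale.

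Regulators of granulocyte development were mixed. Cebpe, which encodes the factor needed to form specific granules, was at 3.69 CPM ± 0.0620 in WT, with 0.541 CPM ± 0.0583 in APP/PS1 and 9.23 CPM ± 0.751 in cKO (SD, n = 3), in the order of the granule genes. It fell by 2.75 and rose by 4.08 on the log2 scale (edgeR adjusted p 4.12e-12 and 3.85e-17). Gfi1, which encodes a transcriptional repressor, fell by 1.80 in APP/PS1 and rose by 1.91 in cKO against APP/PS1 (edgeR adjusted p 9.19e-07 and 4.15e-07). Between cKO and WT, Gfi1 did not pass (0.10, edgeR adjusted p 0.700). Cebpa, Cebpb, Cebpd and Spi1, which microglia also express, differed by 0.35 or less in these comparisons. Of the 6 regulators, 6 were lower in APP/PS1 than in WT, 5 were higher in cKO than in APP/PS1, and 2 were higher and 1 lower in cKO than in WT.

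**Figure D4:**
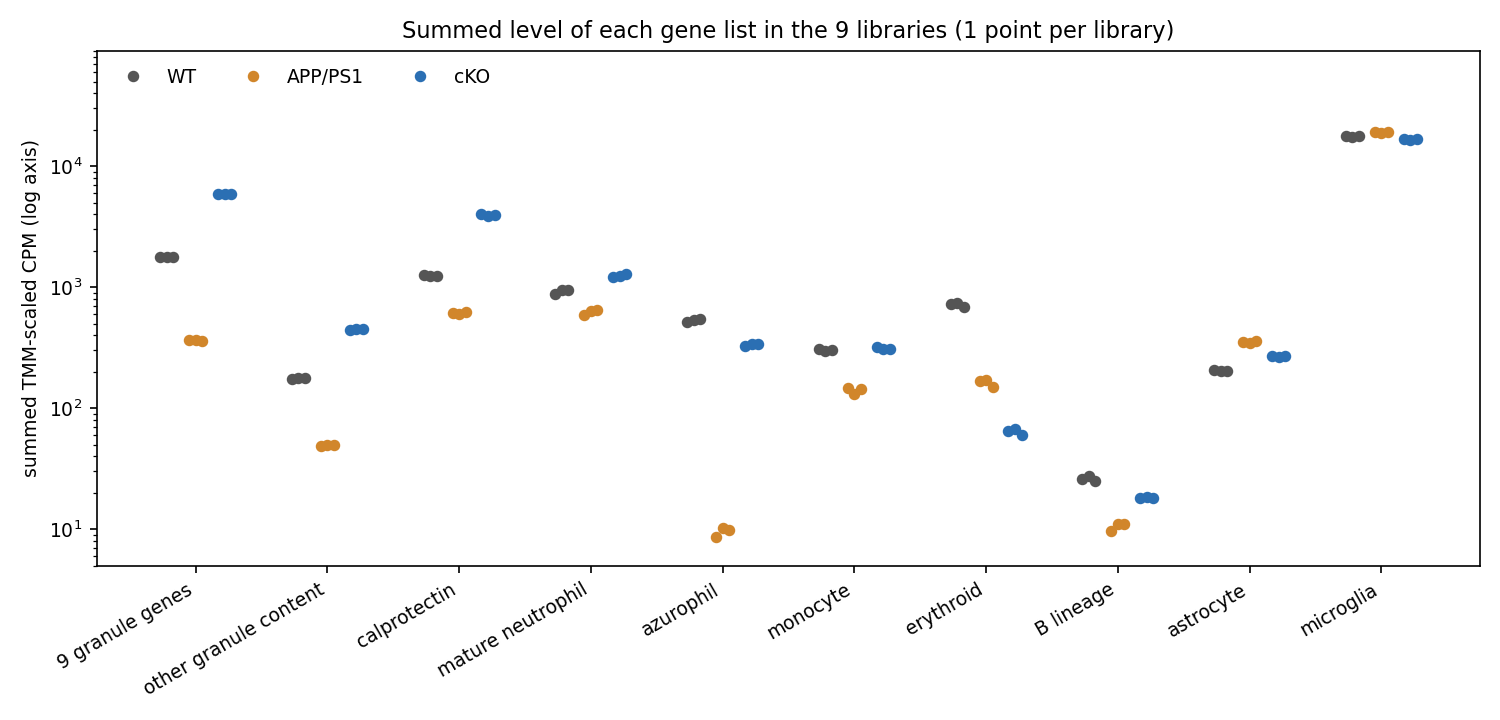
Summed TMM-scaled CPM (log axis) of the 9 granule genes and of 9 other gene lists, with 1 point per library. The 9 genes range from 362 to 366 CPM in APP/PS1 up to 5835 to 5845 CPM in cKO, whereas the azurophil and erythroid lists are highest in WT.

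Markers of other cell types moved with the granule genes only in part. The 5 monocyte markers summed to 295 to 307 CPM in WT, with 130.5 to 148 CPM in APP/PS1 and 306 to 323 CPM in cKO. Of these markers 5 were lower in APP/PS1 than in WT, 5 higher in cKO than in APP/PS1, and 3 higher and 1 lower in cKO than in WT. The 6 erythroid markers summed to 687 to 741 CPM in WT, with 151 to 171 CPM in APP/PS1 and 59.7 to 67.8 CPM in cKO, and 6 of 6 were lower in each disease-model group than in WT. The 4 B lineage markers that were found summed to 25.0 to 27.3 CPM, 9.61 to 11.1 CPM and 17.9 to 18.6 CPM in WT, APP/PS1 and cKO. Of these 4, 3 were lower in APP/PS1 than in WT (median -2.44), 3 were higher in cKO than in APP/PS1 (median 1.26) and 3 were lower in cKO than in WT (median -0.58). Neuronal markers (5 genes) summed to 34.7 to 40.9 CPM in WT, 38.1 to 47.3 CPM in APP/PS1 and 26.0 to 28.1 CPM in cKO. Of these 5, 2 were higher in APP/PS1 than in WT, 4 were lower in cKO than in APP/PS1 and 3 were lower in cKO than in WT. Of the 5 astrocyte markers, 5 were higher in APP/PS1 than in WT, 4 lower in cKO than in APP/PS1, and 3 higher and 1 lower in cKO than in WT. No marker of these 5 lists was at 0 in every library of a group, and Klf1, an erythroid factor, had at most 3 counts in APP/PS1. The part of each of these cell types in the values of the 9 genes was not tested.

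The genes outside the set whose profile was closest to the mean profile of the 9 genes were found by Euclidean distance of centred log2 CPM over 9 libraries, among 13585 tested genes with a mean of at least 1 CPM. They were Acpp (distance 0.217), Ltb4r1 (0.390), Asprv1 (0.480), Hp (0.507) and Hdc (0.527). Hp, the haptoglobin gene, is also in the list of other content genes. Of the 9 genes themselves, Mmp8 (0.318) and Ngp (0.357) lay closest to their mean and Cd24a (1.13) and Camp (1.28) farthest. Hdc, for histidine decarboxylase, was at 64.3 CPM ± 0.303 in WT, with 12.3 CPM ± 1.25 in APP/PS1 and 146 CPM ± 4.004 in cKO (SD, n = 3), and Ltb4r1, a leukotriene B4 receptor, at 8.59 CPM ± 0.317, 1.53 CPM ± 0.101 and 20.8 CPM ± 0.541.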

How the data were processed

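Per the labels' protocols, libraries were made from poly-A RNA and read as 50-nt single ends on DNBSEQ. The submitters' processing notes name HISAT, Bowtie2, DESeq2 and the build GRCm38.p6, with no role or version. The counting program and annotation are not given in the sources used here. Per the file headers, the deposited table gives TPM, FPKM, estimated counts and normalised counts by library. The authors' normalised counts are a signal, of which each value is the rounded-up estimated count times 1 factor for its library. They entered no test. The 9 genes, and the lists set beside them, were chosen with earlier results of these data known. A further gene of the set is not reported here.

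Estimated counts were rounded, although the design had assumed plain counts. All 14696 genes that passed filterByExpr (the 9 genes among them) entered 1 quasi-likelihood fit over 9 libraries with TMM factors, robust dispersion and a mean per group (edgeR 4.0.16 in R 4.3.3). Adjusted p-values are Benjamini-Hochberg values over these genes, and a call needs a value under 0.05. SE is the log2 change divided by the root of the F statistic. CPM uses unrounded counts. Single values had two-sided exact permutation tests (scipy 1.17.1). The step was also run on counts simulated for cKO against APP/PS1 with 200 changed genes. With a biological coefficient of variation of 3%, it recovered 96% of 2-fold and 100% of 16-fold changes among 14569 genes. Of its calls 7.11% were false, more than the threshold of 0.05 allows. With 10%, it recovered 95% and 100%, and 3.94% of calls were false. In the data 55% of tested genes were called in this comparison, a setting the simulation does not cover.

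The rule names the 9 genes, genes at the ends of each list, Gja1, Ddx3y and Cx3cr1, and the 5 nearest profiles (pseudocount 0.01 CPM). Other listed genes were named after their values were seen. Alternatives were DESeq2 size factors, library totals, the DESeq2 1.42.0 Wald test, limma-voom (limma 3.58.1), no filter, 10 or more counts in each library, fits of 2 groups, a replicate block, limma-trend on TPM and FPKM with pseudocounts of 1 and 0.1, and leaving out each library. The ratio to azurophil genes and the ratio without Csf3r were added after seeing the data. Ighm was not found among the symbols of the table.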

Additional observations from a re-analysis of the deposited data

How the results depend on the processing

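Under each alternative run, 9 of the 9 genes were called in each comparison, and the 9 genes kept their direction and their call in all 567 values recomputed. Their log2 changes in cKO against APP/PS1 ranged from 2.86 (Cd24a) to 4.76 (Cd177). Counts of all genes called were 8670, 8085 and 7010 and ranged from 6998 to 11349, 6463 to 9104 and 5303 to 9047, each within 1.5 times the reported count.

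With the replicate number as a block, 9 of the 9 genes were called in each comparison, as without it, and 9319, 8851 and 7934 of all genes, where the biological coefficient of variation was 0.988% in place of 3.14%. Of 222 values of the other listed genes, 11 gained a call with the block and 0 lost one. Those gained were Timp1 in APP/PS1 against WT and in cKO against APP/PS1 (edgeR adjusted p 0.00643 and 0.0180), Timp2, Tubb3, Clec10a, Tmem119 and Sall1 in the latter (0.0465, 0.0307, 0.0435, 3.60e-10 and 0.00141), and Csf3r, Lrp1, Stmn2 and Spi1 in cKO against WT (0.0378, 0.00500, 0.00829 and 0.02999). Libraries with the same number correlated by 0.0557 to 0.289 in their deviations from the group means (9 pairs, mean 0.192, 10813 genes). The mean for other numbers was -0.0955, so libraries with the same number shared some structure. Not every pair exceeded 0.1, and the numbers were not taken as a pairing. The paired log2 differences of the summed level were -2.28, 4.004 and 1.72 (exact paired permutation p 0.25, the smallest possible). For cKO against WT, the log2 difference of the ratio was 1.48 for Ltf, Camp and Ngp over Cxcr2, Csf3r and Retnlg, 0.50 for these 3 genes over Cxcr2 and Retnlg alone, and 0.064 for all 9 genes over calprotectin. Depth limits precision most for Cd177 and Mmp8 in APP/PS1, at 11.7 CPM ± 1.44 and 12.1 CPM ± 0.726 (SD, n = 3).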
